A study of Mus musculus with 15 samples.

Results

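Mouse lungs hold heart muscle cells as well as lung cells, because a sleeve of cardiac muscle runs from the left atrium along the pulmonary veins into the lung. Here 10 genes of that muscle (Actc1, Myh6, Myl7, Myl4, Tnnt2, Tnni3, Nppa, Ryr2, Sln and Mybpc3) were followed in whole-lung RNA. They were chosen by symbol as known cardiac muscle genes, and make up 10 of the 46603 genes in the count table and 10 of the 15870 genes with enough reads to be tested. The lungs came from athymic Swiss nude mice (Foxn1nu/nu), which lack mature T cells, aged 8 to 12 weeks and of either sex, with 1 library per lung. The 5 PT lungs were from mice that carried a primary tumour of 143B cells, a human osteosarcoma line, grown under the skin from 500000 cells for 8 to 10 days to 50 to 60 cubic millimetres. The 6 SCR lungs were from mice given 25 µL of the concentrated secretome of 143B cells by intraperitoneal injection on each day of 1 week, and the 4 CTR lungs were from control mice, which the study calls vehicle-treated in one place and untreated in another. The study compared the lungs to see how a distant tumour, or the factors it secretes, alters the lung before metastases appear. Blood was drawn by puncture of the heart before the lungs were taken, and no source says how much vein or atrial wall stayed with each lung.

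Cardiac muscle contracts when calcium enters the cell and opens the ryanodine receptor, which releases stored calcium onto the thin filament. Troponin then uncovers actin, myosin heads pull, and calcium is pumped back into the sarcoplasmic reticulum. Atrial and ventricular muscle differ in their myosin light chains, and the muscle of the pulmonary veins carries the atrial forms. It is known as a site from which atrial fibrillation can start. The same genes mark the atria, so reads from vein muscle and from attached atrial tissue cannot be told apart in these libraries, nor can fewer muscle cells and less RNA per cell.

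The 250 bases before the RefSeq transcription start (GRCm38.p6) are shown here for 3 of the 10 genes. These are a light chain, the hormone and the myosin-binding protein, whose windows lie outside annotated exons. Entries were found for 9 of the 10 genes, all but Sln. Capitals mark a CArG box or a MEF2 site, the elements bound by serum response factor and by MEF2 factors in muscle genes, the letters CATTCC, the core of the element bound by TEAD factors, the letters GATAA, bound by GATA factors, and the letters TATAAA, the TATA box. All were searched on both strands, and a match is a description of these letters.
Myl7 (chr11:5898783-5899032, minus strand): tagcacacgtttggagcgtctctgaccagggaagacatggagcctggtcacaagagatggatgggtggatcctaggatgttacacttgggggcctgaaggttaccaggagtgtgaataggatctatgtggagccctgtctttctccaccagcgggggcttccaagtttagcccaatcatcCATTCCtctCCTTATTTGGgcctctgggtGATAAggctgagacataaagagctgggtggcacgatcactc
Nppa (chr4:148000472-148000721, plus strand): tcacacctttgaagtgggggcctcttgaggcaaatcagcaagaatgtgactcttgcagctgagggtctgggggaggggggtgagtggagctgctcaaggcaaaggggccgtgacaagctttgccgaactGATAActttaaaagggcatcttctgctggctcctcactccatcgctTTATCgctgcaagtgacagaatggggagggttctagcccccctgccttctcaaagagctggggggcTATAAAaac
Mybpc3 (chr2:91117894-91118143, plus strand): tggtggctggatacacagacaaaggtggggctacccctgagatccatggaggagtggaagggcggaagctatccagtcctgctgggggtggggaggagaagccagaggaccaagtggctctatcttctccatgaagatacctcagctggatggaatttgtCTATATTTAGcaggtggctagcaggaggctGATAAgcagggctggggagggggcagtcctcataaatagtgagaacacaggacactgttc
Across the windows, a CArG box was present in 2 of the 9 genes, Actc1 and Myl7, against 1.47% of the 32851 mouse promoters of this length. A MEF2 site was found in Mybpc3 alone, against 2.92% of promoters. CATTCC stood in 3 of the 9 genes (12.6% of promoters), GATAA in 4 (22.6%) and TATAAA in 1, Nppa (12.4%). A gene was counted when any of its windows matched, and Tnnt2 had more than 1, whereas the percentages are per promoter window. Myl4, Tnni3 and Ryr2 had no match to any of these elements. No element was common to the 9 genes within these windows, which leave out more distant enhancers.

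Each lung contained between 2002 and 17759 reads of the 10 genes, in libraries of 12767431 to 22109856 counts. The genes were chosen by symbol, so these reads are no check of the label of cardiac muscle. By Xist and Y-linked genes PT lungs 3 and 5 and SCR lungs 4 and 6 were female, and the other 11 lungs male, although Xist reached 7.29 CPM in PT lung 6 and 27.4 CPM in SCR lung 5, and Y-linked genes 4.66 CPM in SCR lung 6. As FPKM, here counts scaled to gene length and TMM library size, the mean level over the 15 lungs was highest for Myl7, the atrial regulatory light chain, at 105 FPKM. Actc1, cardiac alpha actin, followed with 57.8, and Sln, the sarcolipin that slows the calcium pump of atrial muscle, with 32.2 FPKM. The middle of the order was taken by Myh6, alpha myosin heavy chain (23.1), Tnni3, cardiac troponin I (20.6), Myl4, the atrial essential light chain (17.9), and Tnnt2, cardiac troponin T (9.84 FPKM). Nppa, the precursor of atrial natriuretic peptide, averaged 4.44, Mybpc3, cardiac myosin-binding protein C, 1.58, and Ryr2, the cardiac ryanodine receptor, 0.9504 FPKM. The gene length used here covers all annotated exons, and exceeds the coding length far more for Myl4 (4637 against 579 bases) and Tnnt2 (7752 against 906) than for Myl7 (590 against 525), so the order depends on that length. Neighbours such as Myh6, Tnni3 and Myl4 lie within the spread between lungs described next. The deposited FPKM, which the authors also scaled to length, put the 10 genes in the same order.

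Levels differed severalfold between lungs of the same group. Of the 10 genes, 9 were highest in PT lung 6, and Myh6 was highest in CTR lung 1. The lowest level was in SCR lung 6 for 5 genes, in CTR lung 4 for 4 and in SCR lung 3 for Nppa. The summed level of all 10 was 642, 560.2, 474, 472 and 1228 CPM (counts scaled to library size by TMM) in PT lungs 1, 2, 3, 5 and 6. In SCR lungs the sum ran from 145 to 714 CPM with a median of 444, and in CTR lungs 1, 2, 4 and 5 it was 1078, 620.4, 183 and 396 CPM. The ranges of all 3 groups therefore overlapped, and CTR held both the second highest and the second lowest lung. Among the 9 genes detected in every lung, the highest lung exceeded the lowest by between 7.16-fold (Actc1) and 26.0-fold (Sln). The genes varied together, with a Pearson r of log2 CPM over the 15 lungs between 0.53 and 0.98 in the 45 pairs (median 0.80). Myl4 followed the mean of the other 9 most closely (r = 0.95) and Ryr2 least (r = 0.73). These lungs share libraries and scaling, so the correlations are descriptions.

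**Figure D1:**
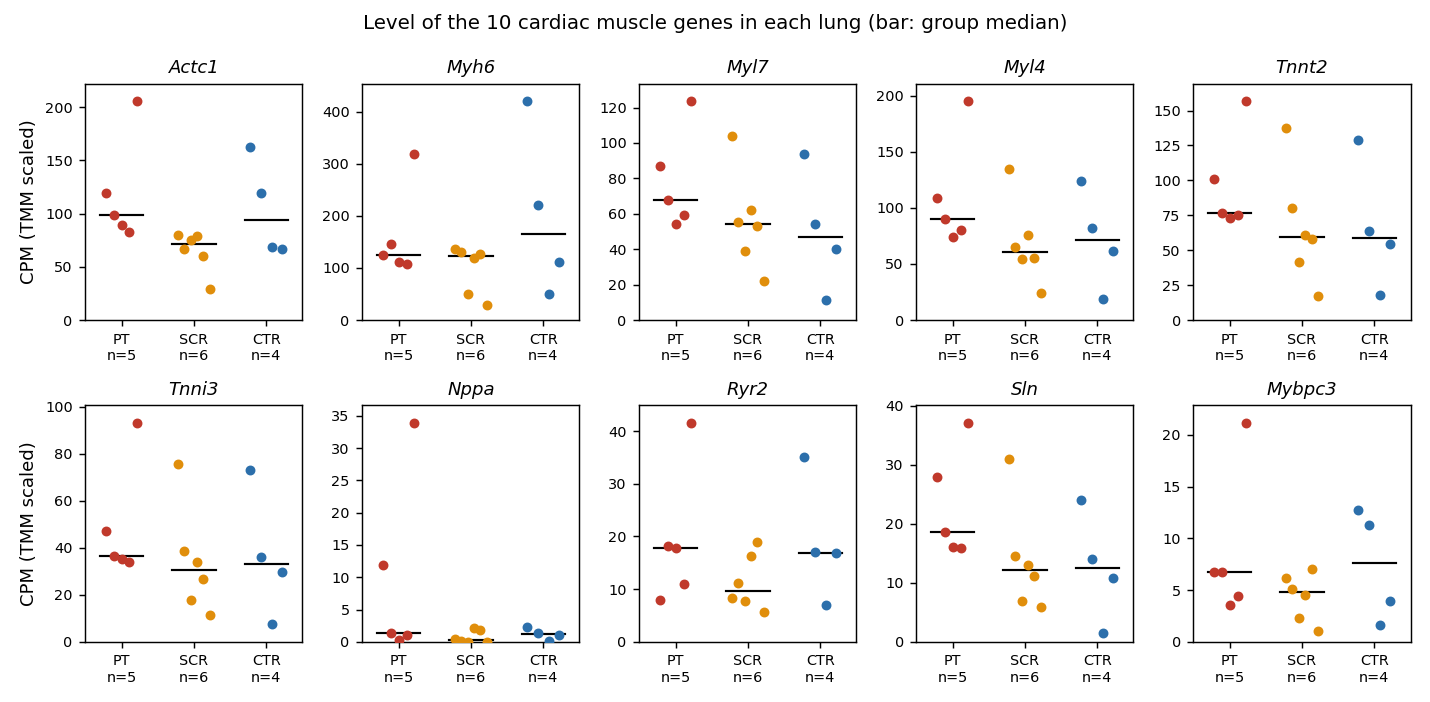
Level of each of the 10 genes in CPM (TMM scaled, linear axis from 0) in the 5 PT, 6 SCR and 4 CTR lungs, with a point per lung, in order of lung number, and a bar at the group median. The groups overlap for 10 of 10 genes between PT and CTR, and PT lung 6 is the highest point for 9 of the 10 genes.

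The genes of the thick filament were measured first. Myh6 had 125, 145, 110.4, 107 and 319 CPM in PT lungs 1, 2, 3, 5 and 6. In SCR lungs it ran between 28.9 and 137 CPM with a median of 123, and CTR lungs 1, 2, 4 and 5 had 420.0, 221, 49.6 and 111 CPM. The gene for the main motor of the mouse heart (chr14:54941981-54966927, GRCm38) was thus lower in PT lungs 1, 2, 3 and 5 than in CTR lungs 1 and 2, and higher there than in CTR lung 4. Myl7 had 86.9, 67.8, 54.2, 59.4 and 124 CPM in PT lungs 1, 2, 3, 5 and 6. The SCR lungs had from 22.2 to 104 CPM with a median of 54.2, and CTR lungs 1, 2, 4 and 5 had 93.96, 54.1, 11.1 and 40.03 CPM. For this light chain (chr11:5896637-5898782) CTR lung 4 and SCR lung 6 were the lowest of all lungs. Myl4 had 109, 90.4, 74.02, 80.5 and 195 CPM in PT lungs 1, 2, 3, 5 and 6. Levels in SCR lungs were 24.4 to 134 CPM with a median of 60.7, and CTR lungs 1, 2, 4 and 5 had 124, 82.3, 18.7 and 61.3 CPM. Its partner light chain (chr11:104550663-104595753) ordered the lungs almost as Myl7 did. Mybpc3 had 6.76, 6.72, 3.59, 4.41 and 21.2 CPM in PT lungs 1, 2, 3, 5 and 6. Its SCR range was 1.09 to 6.999 CPM with a median of 4.82, and CTR lungs 1, 2, 4 and 5 had 12.7, 11.3, 1.66 and 3.93 CPM. Mybpc3 (chr2:91118144-91136516), which tethers myosin to the filament backbone, rested on 15 to 272 counts per lung and was far higher in PT lung 6 than in the other PT lungs.

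In the thin filament, Actc1 had 119, 98.8, 89.2, 82.5 and 206 CPM in PT lungs 1, 2, 3, 5 and 6. In SCR lungs it ran between 28.7 and 80.2 CPM with a median of 71.1, and CTR lungs 1, 2, 4 and 5 had 163, 119.7, 68.8 and 66.5 CPM. Actc1 (chr2:114047282-114053548) was the only one of the 10 genes whose PT and SCR levels did not overlap: the lowest PT lung, at 82.5 CPM, lay just above the highest SCR lung. Such a separation, in either direction, was found for 1.67% of all genes tested between PT and SCR, and for none of the 10 genes between PT and CTR (3.38% of all genes) or SCR and CTR (4.01%). Tnnt2 had 101, 76.7, 73.2, 75.3 and 157 CPM in PT lungs 1, 2, 3, 5 and 6. The SCR lungs had from 17.3 to 137 CPM with a median of 59.4, and CTR lungs 1, 2, 4 and 5 had 129, 63.7, 17.9 and 54.4 CPM. The level of cardiac troponin T (chr1:135836354-135852260), which anchors the troponin complex to tropomyosin, in SCR lung 1 was above every PT lung but lung 6. Tnni3 had 47.2, 36.5, 35.4, 34.2 and 93.2 CPM in PT lungs 1, 2, 3, 5 and 6. Levels in SCR lungs were 11.2 to 75.6 CPM with a median of 30.5, and CTR lungs 1, 2, 4 and 5 had 73.3, 36.1, 7.37 and 29.7 CPM. Troponin I (chr7:4518305-4524229), the inhibitory subunit, was highest in PT lung 6 and lowest in CTR lung 4. Tnni3 overlaps Dnaaf3, and these genes share 1.69% of the 50-base stretches of Tnni3 transcripts.

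Of the calcium genes, Ryr2 had 7.91, 18.1, 17.8, 11.02 and 41.5 CPM in PT lungs 1, 2, 3, 5 and 6. Its SCR range was 5.59 to 18.8 CPM with a median of 9.73, and CTR lungs 1, 2, 4 and 5 had 35.1, 17.1, 6.95 and 16.8 CPM. Ryr2 (chr13:11553103-12106945) was close to the lowest CTR level in PT lung 1, a lung where the other 9 genes were at or above the PT median. Sln had 27.9, 18.7, 16.1, 15.9 and 37.1 CPM in PT lungs 1, 2, 3, 5 and 6. In SCR lungs it ran between 5.88 and 30.9 CPM with a median of 12.1, and CTR lungs 1, 2, 4 and 5 had 24.04, 14.1, 1.43 and 10.9 CPM. Sln (chr9:53850251-53853844) in CTR lung 4 rested on 31 counts and lay apart from the remaining lungs.

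Nppa (chr4:148000722-148002079) behaved unlike the structural genes. Nppa had 11.8, 1.32, 0.2802, 1.03 and 33.9 CPM in PT lungs 1, 2, 3, 5 and 6. The SCR lungs had from 0 to 2.07 CPM with a median of 0.261, and CTR lungs 1, 2, 4 and 5 had 2.25, 1.42, 0.0461 and 1.12 CPM. The hormone precursor was therefore high in PT lungs 1 and 6 only, with 154 and 436 counts, and it had 0 counts in SCR lungs 3 and 6. PT lungs 2, 3 and 5 lay within the range of CTR lungs. In PT lungs 1 and 6, Nppa made up 1.84% and 2.76% of the counts of the 10 genes, against at most 0.445% in each of the other 13 lungs. CTR lung 1, whose summed level of the 10 genes in CPM was second only to PT lung 6, had 0.208%. Nppb, the B-type natriuretic peptide, had 0 to 11 counts per lung and was below the count filter. Actc1, Myh6, Myl4, Nppa and Ryr2 are each overlapped by genes on the opposite strand (Gm13054 for Nppa), and since the strand setting of the counts is not stated, reads of such pairs could be mixed.

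None of the 10 genes passed the adjusted test between PT and SCR lungs (edgeR quasi-likelihood test, Benjamini-Hochberg), where 0.0378% of all genes did, and 2 had an unadjusted p under 0.05, where 11.8% of all genes did. All 10 log2 fold changes were above 0 (51.8% of all genes were below 0), with a median of 0.73 against -0.01 over all genes. The likelihood ratio test of edgeR and DESeq2 gave 0 adjusted calls among the 10 genes as well, here and in the comparisons with CTR. Since the genes vary together from lung to lung, these are not 10 separate observations. Nppa differed by 3.63 (SE 1.18, adjusted p = 0.244), with an unadjusted p of 0.00773, and Actc1 by 0.87 (SE 0.30, adjusted p = 0.269), with an unadjusted p of 0.01002. Without PT lung 6 the unadjusted p was 0.0641 for Nppa, at a log2 fold change of 2.20, and 0.0544 for Actc1, at 0.58. All 10 values stayed above 0 without that lung, the lowest being 0.17 for Tnni3 (adjusted p = 0.944). With all lungs, the other 8 log2 fold changes lay between 0.49 (Myl7, SE 0.43) and 0.95 (Mybpc3, SE 0.57). With the study's looser threshold, an unadjusted p under 0.05 and a log2 fold change over 1 in size, Nppa was the 1 gene of the 10 to pass, as did 1.9% of all genes.

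Between PT and CTR lungs, none of the 10 genes passed the adjusted test, which 0% of all genes passed, and 1 had an unadjusted p under 0.05 (7.66% of all genes). That gene was Nppa, with a log2 fold change of 3.02 (SE 1.33, adjusted p = 0.623) and an unadjusted p of 0.0377. It was also the 1 gene past the looser threshold, which 0.964% of all genes passed. Without PT lung 6 its log2 fold change was 1.58 at an unadjusted p of 0.212. The other 9 genes had values between -0.31 (Myh6, SE 0.55) and 0.88 (Sln, SE 0.59). In all, 9 of the 10 were above 0 (48.4% of all genes were below 0), with a median of 0.49 against 0.01 over all genes. The sign of Myh6 rested on CTR lung 1, with 0.35 without that lung, while leaving out PT lung 6 gave -0.71.

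Between SCR and CTR lungs most log2 fold changes were below 0, without a call. None of the 10 passed the adjusted test, where 0.113% of all genes did, and 1 had an unadjusted p under 0.05 (18.8% of all genes). Actc1 differed by -0.68 (SE 0.32, adjusted p = 0.2595), with an unadjusted p of 0.0462, which became 0.252 without CTR lung 1. Myh6 differed by -1.02 (SE 0.53, adjusted p = 0.307), and by -0.36 without CTR lung 1, the lung with the highest Myh6 level. Nppa had -0.62 (SE 1.30). Ryr2 had -0.74 (SE 0.47) and Mybpc3 -0.74 (SE 0.60), while Myl7, Myl4, Tnnt2, Tnni3 and Sln lay between -0.10 and 0.17. In all, 8 of the 10 were below 0 (48.8% of all genes), with a median of -0.36 against 0.01 over all genes. Both comparisons with control used the same 4 CTR lungs. The looser threshold was passed by 0 of the 10 genes and by 1.63% of all genes.

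**Figure D2:**
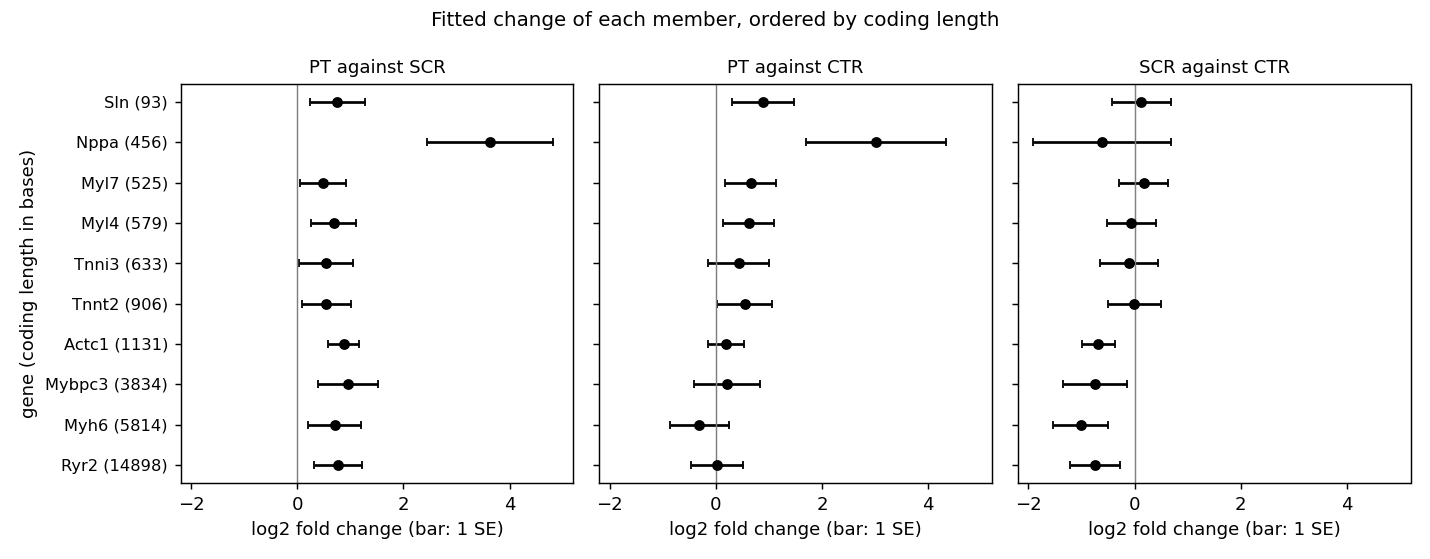
Log2 fold change of each of the 10 genes (x axis, point, bars of 1 SE from the edgeR fit) in PT against SCR, PT against CTR and SCR against CTR, with genes ordered from the shortest to the longest coding sequence (93 bases for Sln, 14898 for Ryr2). All 10 points lie above 0 in PT against SCR, and in SCR against CTR the 4 longest genes lie lowest, between -1.02 (Myh6) and -0.68 (Actc1).

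The make-up of the muscle reads can be read without regard to their amount, as the share of each gene in the summed counts of the 10. Myh6 made up 19.4, 25.9, 23.3, 22.7 and 26.01% in PT lungs 1, 2, 3, 5 and 6, 16.8% to 30.4% in SCR lungs (median 22.7%) and 38.97, 35.6, 27.02 and 28.1% in CTR lungs 1, 2, 4 and 5. The share of this myosin in every PT lung lay below that in every CTR lung, while SCR lungs overlapped CTR. Myl7 went the other way, with 13.5, 12.1, 11.4, 12.6 and 10.1% in PT lungs 1, 2, 3, 5 and 6, 11.8% to 15.3% in SCR lungs (median 13.3%) and 8.72, 8.72, 6.03 and 10.1% in CTR lungs 1, 2, 4 and 5, so that every SCR lung lay above every CTR lung and PT lungs overlapped CTR narrowly. Myl4 and Sln had a higher share in every PT lung than in every CTR lung: Myl4 had 15.6% to 17.1% in PT lungs against 10.2% to 15.5% in CTR lungs, and Sln 3.02% to 4.34% in PT lungs against 0.779% to 2.74% in CTR lungs. Actc1 was steady at 16.8% to 18.8% in PT lungs but reached 37.5% in CTR lung 4, where the other muscle genes were scarce.

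These shares were inspected after the levels were known, and their parts sum to a whole, so one gene's lower share raises the others. They also went with coding length: Myh6 (5814 bases) was lower against CTR, and Myl7 (525), Myl4 (579) and Sln (93) higher. Over all genes, long ones had lower log2 fold changes against CTR than short ones, as given below. The part of length in the shares was not tested. For the ratio of a gene to the summed counts of the other 9, PT and CTR did not overlap for 3 of the 10 genes (Myh6 lower, Myl4 and Sln higher), SCR and CTR for 1 (Myl7, higher) and PT and SCR for 0. The ratio of other genes to the sum of the 10 was lower without overlap for 0.0441% of genes in PT against CTR and higher for 0.0189%. In the same way, in SCR against CTR it was lower for 0.00631% and higher for 0.0694%, and in PT against SCR it was lower for 2.5% and higher for 0.00631%. Of all 15870 genes tested, 0.737% had a Pearson r over 0.7 with the mean of the 10, so most did not follow the muscle from lung to lung. The part of this in how often their ratios separated groups was not tested. Their shares do not show how often a gene of the muscle would separate. Among the 61 tested genes of 4 other cardiac gene lists, groups were apart for 0% in PT against CTR, for 1.64% (Cox6a2, a muscle subunit of cytochrome oxidase, higher) in SCR against CTR and for 0% in PT against SCR. These lists are mixed too. An r over 0.7 was reached by 18 of 25 other sarcomere, 5 of 12 calcium handling, 4 of 12 ion channel and conduction and 9 of 12 muscle energy genes. Their shares are therefore limited in the same way, and whether the 10 genes differ from them was not tested.

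**Figure D3:**
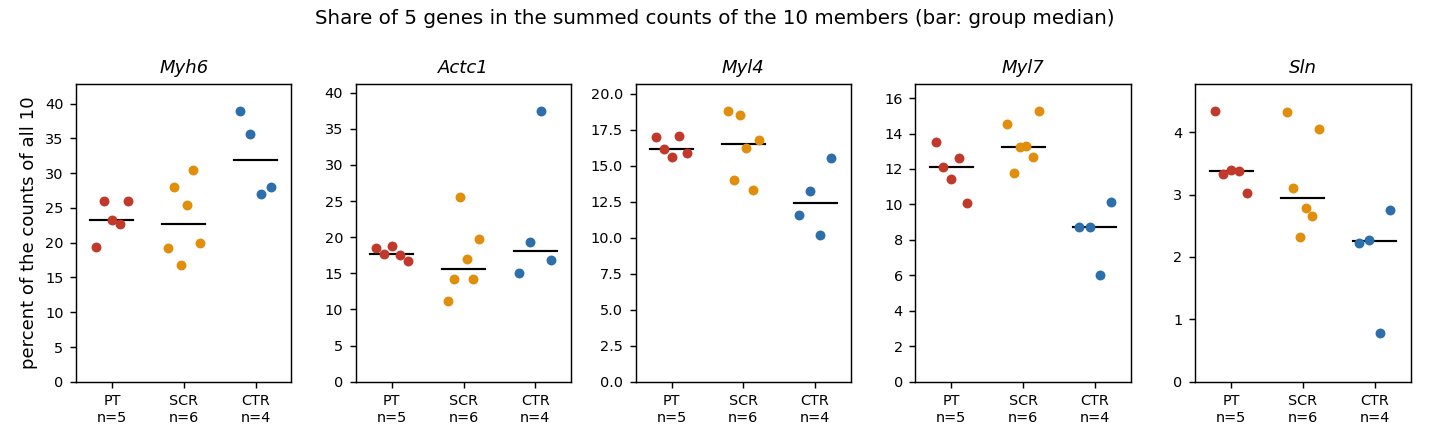
Share of Myh6, Actc1, Myl4, Myl7 and Sln in the summed counts of the 10 genes (percent, linear axis from 0) in each PT, SCR and CTR lung, with a bar at the group median. Every PT lung lies below every CTR lung for Myh6 (26.01% at most against 27.02% at least) and above every CTR lung for Myl4 and Sln. Myh6 has a long coding sequence and Myl4 and Sln short ones, and the part of length in the shares was not tested.

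The log2 fold changes against CTR went with coding length. In SCR against CTR, the median log2 fold change was -0.74 for the 3 genes with over 3000 coding bases (Myh6, Mybpc3 and Ryr2), -0.68 for Actc1 and -0.04 for the 6 short ones. The same order held among the 61 genes of the other cardiac lists, with -0.65 for 17 long genes, -0.36 for 28 of middle length and 0.01 for 16 short ones. It was present over the whole table too, where long genes had a median of -0.25 (n = 2039) and short ones 0.16 (n = 4577). In PT against CTR the medians over all genes were -0.19 and 0.11, and those of the 3 long and 6 short muscle genes 0.02 and 0.64. PT and SCR differed little in this respect, with 0.04 for long and -0.05 for short genes over the table. The level of long relative to short genes in a lung ran from -0.34 to 0.13 log2 units in PT, from -0.80 to 0.28 in SCR and from 0.13 to 0.44 in CTR lungs. SCR lungs 1 and 3, which also stood apart in the share of reads from the club cell gene Scgb1a1 (6.59% and 9.01%), had the lowest values. With an offset for coding length in the fit, the log2 fold change of Myh6 in SCR against CTR was -0.66 (adjusted p = 0.567) and that of Actc1 -0.73 (adjusted p = 0.266). The part of length in each gene's change was not tested otherwise.

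Of the myosin light chains that separate atrium from ventricle, the atrial forms made up nearly all counts in the 15 lungs. Myl2, the ventricular regulatory light chain, had 0 to 6 counts in PT, 0 to 8 in SCR and 1 to 5 in CTR lungs, and was below the count filter. It made up at most 2.04% of the counts of Myl2 and Myl7 together, in CTR lung 4 (5 counts beside 240 of Myl7, exact 95% binomial interval 0.666% to 4.698%, counting error only). Irx4, a ventricular transcription factor, had 0 counts in every lung. Myl3, the ventricular and slow skeletal essential light chain, had 10 to 17 counts in PT, 2 to 9 in SCR and 2 to 119 in CTR lungs. The 119 counts were in CTR lung 1, where Myl3 reached 5.49% of the pair with Myl4, while Myl2 had 1 count there. The next highest lung had 19 counts, so CTR lung 1 held an uncommon amount of Myl3 together with the highest Myh6.

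Myh7, beta myosin heavy chain, varied less than the 10 genes, with the highest lung (CTR lung 2) at 2.98 times the lowest. Its level was 39.2 to 75.1 CPM in PT, 31.9 to 65.1 in SCR and 42.0 to 95.1 CPM in CTR lungs. Over the 15 lungs, Myh7 followed the mean of the 10 genes with r = 0.43, against 0.91 for Myh6 with the other 9. Its log2 fold change was -0.43 in PT against CTR and -0.64 in SCR against CTR (adjusted p = 0.729 and 0.182). Myh6 and Myh7 share 20.2% of the 50-base stretches of Myh6 transcripts, so reads could be split between them, and Myh7 overlaps antisense genes, with the strand setting of the counts not stated. Of the troponins of slow skeletal muscle, Tnni1 had 0 to 7 counts per lung and Tnnt1 29 to 83 (r = 0.17).

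**Figure D4:**
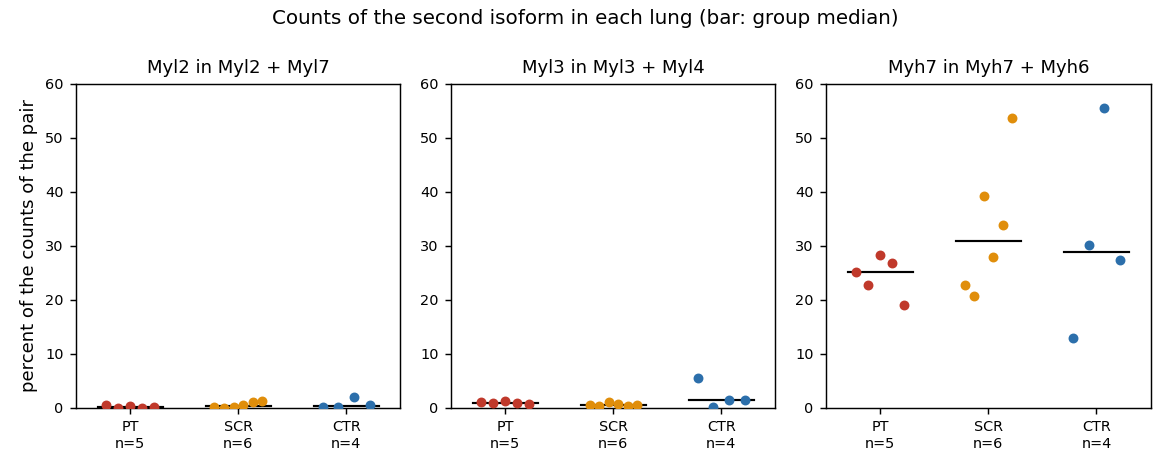
Counts of Myl2, Myl3 and Myh7 as a percent of the counts of each pair with Myl7, Myl4 and Myh6, for every PT, SCR and CTR lung (points, bar at the group median, linear axis from 0 to 60%). Myl2 stays at or below 2.04% and Myl3 at or below 5.49%, while Myh7 takes between 12.9% and 55.5%.

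Markers of other muscle and of vessel lining were set beside the 10 genes. Of 14 skeletal muscle markers, Myh4 had 0 counts in every lung, 6 others were below the count filter, and their summed level was 13.01 to 21.9 CPM in PT, 10.52 to 25.2 in SCR and 11.3 to 19.4 CPM in CTR lungs. The most abundant of them were Myl1, Mybpc2, Tnnt3 and Tnni2, at mean levels of 1.84 to 3.96 CPM. Myl1, a fast skeletal light chain, followed the 10 genes with r = 0.87. The 10 smooth muscle markers, led by Mylk, Tagln, Acta2 and Des, were measured in every lung and summed to 711 to 1001 CPM in PT, 748 to 1197 in SCR and 836 to 1314 CPM in CTR lungs. They did not follow the cardiac genes, with r between -0.03 and 0.20, and PT lung 6 had 1001 CPM of them against 1259.6 CPM in CTR lung 4. In PT against CTR, where the cardiac genes had a median log2 fold change of 0.49, the smooth muscle markers had -0.34, with 10 of 10 below 0, 0 past the adjusted test and 4 at an unadjusted p under 0.05. The 8 endothelial markers, led by Pecam1, Cdh5, Cldn5 and Tek, had r between -0.20 and 0.11, with 8 of 8 below 0 both in PT against CTR (4 at an unadjusted p under 0.05) and in SCR against CTR (6). Over all genes, 48.4% were below 0 in PT against CTR and 7.66% had an unadjusted p under 0.05. In SCR against CTR these shares were 48.8% and 18.8%. The 8 mesothelial markers had r between -0.17 and 0.25, the 7 B cell markers between -0.10 and 0.10, the 8 alveolar epithelial markers between -0.12 and 0.39 and the 6 tested Schwann cell and nerve markers between -0.06 and 0.20, and the 1 tested airway cartilage marker had -0.09. The 6 tested adipocyte markers came nearest, with r between 0.12 and 0.70. Fat cell markers summed to 43.97 to 282 CPM in PT, 22.1 to 66.2 in SCR and 20.8 to 69.9 CPM in CTR lungs, and 6 of 6 were above 0 in PT against SCR (median 1.46), where 51.8% of all genes were below 0. The highest sum was that of PT lung 5, which was not among the lungs rich in the 10 genes. The part of fat, or of other tissue around the veins, in the results was not tested.

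The genes whose levels were most like the mean of the 10 were mostly muscle genes themselves. By Pearson r over the 15 lungs, the 15 closest of all other genes tested were Mb (r = 0.98), Slc17a7, Mybphl, Actn2, Ldb3, Hrc, Ckmt2, Eef1a2, Pgam2, Hfe2, Myom2, Csrp3, Fndc5, Casq2 and Pln (r = 0.93). The median r of all 15870 genes was -0.01, and 117 genes (0.737%) were above 0.7. Of the 15, 10 stood on a list of cardiac genes drawn up for this comparison, with earlier results of these data known. Without PT lung 6 and CTR lung 4, which have the highest and lowest mean of the 10, the r of the 15 over the remaining 13 lungs was 0.87 to 0.96. SCR lung 6, nearly as low as CTR lung 4, stayed in. The 15 were picked for a high r over lungs that include these 13, so the range is a description and no separate check. Mb encodes myoglobin, the oxygen store of heart and slow muscle, and had 18.1 to 102 CPM in PT lungs (median 24.9), 2.97 to 36.3 in SCR lungs (14.7) and 3.32 to 43.6 CPM in CTR lungs (22.5). Actn2 and Ldb3 build the Z-disc, Myom2 the M-band, and Csrp3 is a muscle LIM protein. Casq2 and Hrc bind calcium in the sarcoplasmic reticulum, and Pln, phospholamban, restrains its pump as Sln does. Slc17a7, a vesicular glutamate transporter best known from neurons, had 0.435 to 9.41 CPM over the lungs, and Eef1a2, the translation elongation factor of muscle and neurons, 1.23 to 17.4 CPM.

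**Figure D5:**
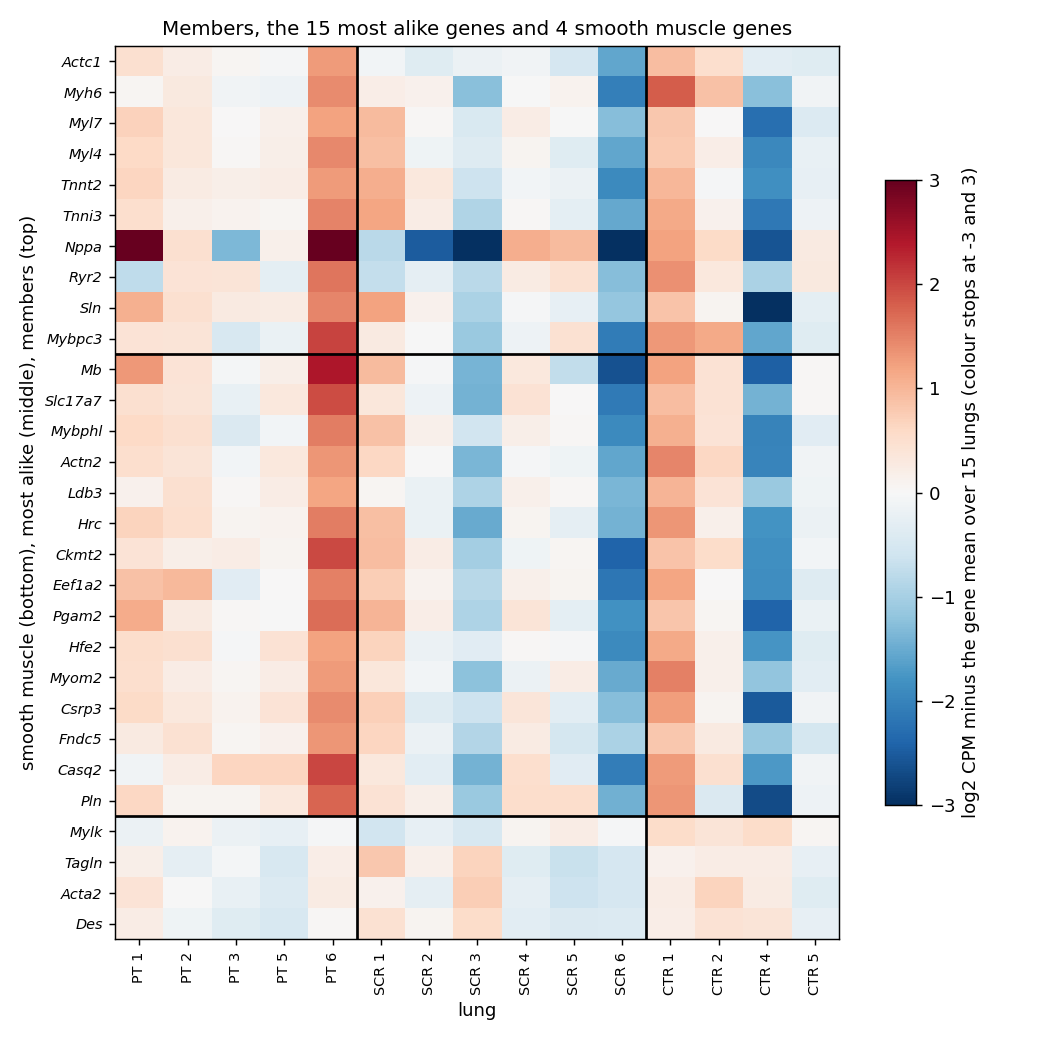
Log2 CPM of the 10 cardiac muscle genes (top), the 15 genes most like them (middle) and the 4 most abundant smooth muscle markers (bottom), each minus its own mean over the 15 lungs, with lungs in columns from PT through SCR to CTR (red higher, blue lower, colours stop at -3 and 3). PT lung 6 and CTR lung 1 are red, and SCR lung 6 and CTR lung 4 blue, in nearly every row of the top and middle blocks. In the smooth muscle rows CTR lung 4 is red, and all values lie between -0.66 and 0.82.

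Further genes of the cardiac machinery were counted by list, and 0 of any list passed the adjusted test in any of the 3 comparisons. Of 25 other sarcomere genes, 18 followed the 10 genes with r over 0.7, and 22 of 25 were above 0 in PT against SCR (median 0.70) and 20 below 0 in SCR against CTR (median -0.48). Of the 4 most abundant, Tpm1 (tropomyosin) had r = 0.77, Nebl -0.11, Ankrd1 0.31 and Unc45b 0.03. Among 12 muscle energy genes 9 had r over 0.7 (Ckm, muscle creatine kinase, 0.90, Eno3, beta enolase, 0.92, but Pdk4 0.01). All 12 were above 0 in PT against CTR, with a median of 0.60 and 1 at an unadjusted p under 0.05, and 7 were below 0 in SCR against CTR. Over all genes, 51.8% were below 0 in PT against SCR, 48.4% in PT against CTR and 48.8% in SCR against CTR. An unadjusted p under 0.05 was found for 7.66% of all genes in PT against CTR.

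The calcium, channel and regulator lists were mixed in this respect. Of 12 calcium handling genes, 5 had r over 0.7, and the most abundant, the calcium pump Atp2a2, had 0.68, whereas Asph, Cacna1c and Jph2 had -0.14, 0.05 and 0.28. Of 12 tested ion channel and conduction genes 4 had r over 0.7, and the abundant gap junction genes Gja5 and Gja1, which vessels also express, had 0.13 and 0.05, Cacna1d had -0.09 and Kcnj2 -0.15. Kcnj3, an atrial potassium channel subunit, had 0.90, and was singled out after its values were seen. The pacemaker channel Hcn4 had 1 to 10 counts per lung. Of 18 cardiac transcription regulators 14 could be tested and 5 had r over 0.7, while the abundant Tbx3, Nr2f2, Mef2c and Gata6, which other lung cells express, lay between -0.29 and -0.01. Nkx2-5 had 0 to 12 counts and Hand2 1 to 13, both below the count filter. Of the ventricular markers, Fhl2, which atria also express, followed the 10 genes with r = 0.90, and Hey2 did not (r = -0.03).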

How the data were processed

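RNA of 15 mouse lungs was sequenced as single-end reads, which the authors trimmed (cutadapt 1.15), cleared of contaminants (Bowtie2 2.3.3.1) and aligned with STAR 2.5.2b to Ensembl GRCm38. Tools named in the submitters' processing notes include SAMtools 1.5 and featureCounts 1.5.3, and the strand setting is not given in the sources used here. The deposited table holds raw counts per gene, with gene length and the GC content of each gene in percent. A second deposited table holds FPKM that the authors normalized within and between samples, used here only for an alternative fit and the order of levels.

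Groups came from the sample titles, which give a group and a number, and p-values measure the spread between these libraries. Counts were filtered (filterByExpr), scaled by TMM and fitted over the 15 lungs with the robust quasi-likelihood test of edgeR 4.0.16 (R 4.3.3), adjusted by Benjamini-Hochberg over 15870 genes. A gene was called at an adjusted p under 0.05. Alternatives used other scalings and filters, an offset for GC or coding length, sex, replicate number, left-out lungs, limma 3.58.1 and DESeq2 1.42.0, and the script was tested on simulated data. The 10 genes and all lists were chosen with earlier results of these data known. Of the other lists, genes called were to be named, otherwise the 4 with the highest mean CPM and those at 0 everywhere, plus the 15 genes most like the 10 (log2 CPM, prior count 2) and 6 isoform partners. Hcn4, Nkx2-5, Hand2, Kcnj3 and Cox6a2 were named after their values were seen. Promoter windows came from RefSeq. Library totals of 12767431 to 22109856 counts limit the precision of the lowest genes.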

Additional observations from a re-analysis of the deposited data

Results flagged for a closer look

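In 5 of the 30 sets of a gene and a group, 1 lung lay far from the others of its group. Chance alone flags about 1 in 20 where values are normally distributed. The rule was applied to CPM without logs, and whether that rate holds for these levels was not tested. PT lung 6 stood apart for 4 genes. It had 319 CPM of Myh6, against 145 CPM in the next PT lung, 195 CPM of Myl4, against 109 CPM, 93.2 CPM of Tnni3, against 47.2 CPM, and 21.2 CPM of Mybpc3, against 6.76 CPM. SCR lung 1 had 30.9 CPM of Sln, against 14.6 CPM in the next SCR lung. The genes share their lung-to-lung pattern, so the 4 flags of PT lung 6 count the same lung again. Nppa in PT lungs 1 and 6 was not flagged.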

How the results depend on the processing

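No call among the 10 genes changed: 0 were called in PT against SCR, PT against CTR and SCR against CTR under each of 29 alternatives, with 0 to 4, 0 to 3 and 0 to 3 genes at an unadjusted p under 0.05. Over all genes, 1264 to 2493, 572 to 2059 and 1614 to 3844 had such a p under the alternatives, whose number of tested genes differed with the filter. In the main fit the shares of all genes were 11.8%, 7.66% and 18.8%. The 10 values of PT against SCR were above 0 under all 29. Of 870 values, 46 changed sign, 24 of them when 1 lung was left out, and the cause was not tested. In SCR against CTR, Myl4, Tnnt2 and Tnni3 had log2 fold changes of 0.10, 0.12 and 0.11 with limma on FPKM, 0.14, 0.20 and 0.11 with a sex term, which gave Nppa 0.093, and 0.12, 0.26 and 0.12 in male lungs alone. Tnnt2 had 0.0021 with only SCR and CTR lungs in the fit. Without SCR lungs 1 to 3, Myl7 had -0.086, Nppa 0.22 and Sln -0.29, and with an offset for coding length, an alternative chosen after seeing the data, Myl7 had -0.078 and Sln -0.24. In PT against CTR, limma gave Myh6 0.039 and Ryr2 -0.021. Leaving out 1 lung at a time gave, in SCR against CTR, -0.17 to 0.68 for Myl7, -0.38 to 0.34 for Myl4, -0.35 to 0.54 for Tnnt2, -0.49 to 0.49 for Tnni3 and -0.27 to 0.66 for Sln. In PT against CTR it gave -0.10 to 0.49 for Actc1, -0.71 to 0.35 for Myh6, -0.47 to 0.50 for Ryr2 and -0.45 to 0.62 for Mybpc3.

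Over all genes, the adjusted calls of the main fit in PT against SCR, PT against CTR and SCR against CTR numbered 6, 0 and 18, against 231, 20 and 640 with DESeq2 and 183, 11 and 348 with the likelihood ratio test of edgeR. Leaving out 1 lung at a time gave 1 to 96 calls in PT against SCR (96 without SCR lung 6), 0 to 3 in PT against CTR (3 without PT lung 2) and 0 to 108 in SCR against CTR (108 without SCR lung 5), so the shares of all genes called at an adjusted p rest on single lungs. Lungs that share a replicate number in different groups deviated with r of -0.30 to 0.38 in 12 pairs, so the numbers were not taken to pair lungs. With the replicate number as a block, 0 of the 10 genes were called in each comparison, and Ryr2 had -0.13 in PT against CTR, while Myl4, Tnnt2 and Tnni3 had 0.12, 0.24 and 0.15 in SCR against CTR. With 4 to 6 lungs a group and a spread of 7.16-fold or more between lungs, small differences in these genes could not be detected.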
